A study of Mus musculus with 6 samples.

Results

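Enzymes that break down amino acids in liver were compared between Cyp2e1-/- mice (knockout, n = 3 libraries) and Cyp2e1+/+ mice (wild type, n = 3). The set of 38 genes was chosen by name, for the catabolism of histidine, the aromatic and branched-chain amino acids, serine, threonine, glycine, lysine and proline and for 3 transaminases. All 38 were among the 15960 genes of the deposited table, and all 38 passed the filter on low values. Both groups were C57BL/6 mice of 22 weeks on a high-fat diet of 14 weeks, so the diet was common to the groups and no other diet was compared. The sources used here do not give the kind of mutant allele, the sex, or whether animals were littermates or pooled. The targeted gene encodes CYP2E1, a microsomal cytochrome P450 abundant in hepatocytes around the central vein and known for ethanol oxidation. The series concerns its interplay with PPARα, a nuclear receptor of fatty acid oxidation, and the question addressed here is how RNA levels of these enzymes differ with Cyp2e1 genotype.

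The liver takes up the amino acids of the portal blood, and hepatocytes hold nearly the full set of enzymes that remove their nitrogen and oxidize their carbon skeletons. Many of these enzymes sit at the portal end of the lobule and are known to follow glucagon, glucocorticoids and protein intake. The branched-chain amino acids are an exception in that their transamination takes place mainly outside the liver, while the dehydrogenase that acts on the resulting keto acids is abundant in it. Tryptophan can be burned completely or turned into the coenzyme NAD, and glycine is split in mitochondria by a complex of 4 proteins.

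Cyp2e1 itself checked the labels, at 257 ± 12.00 FPKM (fragments scaled by transcript length and library total) in the knockout and 6480.4 ± 823 FPKM in wild type (SD, n = 3 each). Its difference was -4.64 on the log2(FPKM + 1) scale used throughout (SE 0.13; limma, adjusted p = 6.7e-08). The table gives no counts, and the steps of its lowest values put the depth at an estimated 10820000 fragments for knockout replicate 1 and 8260000 to 8590000 for the other libraries. Hepatocyte markers were abundant in all libraries (6 genes, summing to 45959 to 54078 FPKM in the knockout and 43264 to 50225 FPKM in wild type). Of 7 macrophage markers 6 had a negative difference and none passed the test, with sums of 64.3 to 126 FPKM in the knockout and 121 to 137 FPKM in wild type, and none was at 0. These sums overlapped, and 5567 of all 9968 tested genes had a negative difference. Whether macrophage content has a part in the results below was not tested. In whole liver, fewer cells of a type and less RNA per cell cannot be told apart. Replicate 1 of both genotypes stood apart from the rest: weights estimated from the residual spread were 0.37 for knockout replicate 1 and 0.29 for wild type replicate 1, against 1.10 to 2.86 for the other 4 libraries. Each result that rests on these libraries is therefore given with and without them.

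Acmsd was the member that rose in the knockout, and no member fell. Of 38 members 1 rose and 37 did not pass (adjusted p under 0.05), where 0.472% of the 9968 tested genes rose, 0.291% fell and 0.762% did either. The members' differences ran from -0.28 to 0.92 with a median of 0.07, beside a median of -0.03 over all tested genes, and 24 were positive and 14 negative. At an unadjusted p under 0.05 there were 8 members, beside 9.93% of all tested genes. Outside the members, 45 further enzymes of the same pathways were tested, and Gldc, the decarboxylase of glycine cleavage, rose while the other 44 did not pass. Without replicate 1 of both genotypes, 10 of the 38 members rose and 1 fell, in a fit where 6.92% of all tested genes rose and 4.95% fell. The 10 were Hal, Hpd, Tdo2, Afmid, Acmsd, Sds, Aass, Gcdh, Got1 and Gpt, and the 1 that fell was Gcsh. Of the 45 further enzymes 9 rose and 1 fell in that fit. That fit has 2 libraries per genotype, and the libraries left out are those given the lowest weights from these same values. Leaving them out lowers the residual spread, so the adjusted p-values of that fit are no independent support for a rise or fall. With all 6 libraries and sample quality weights 10 members rose and 1 fell, where 5.99% of all tested genes rose and 5.56% fell. These weights come from the same residual spread.

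**Figure D1:**
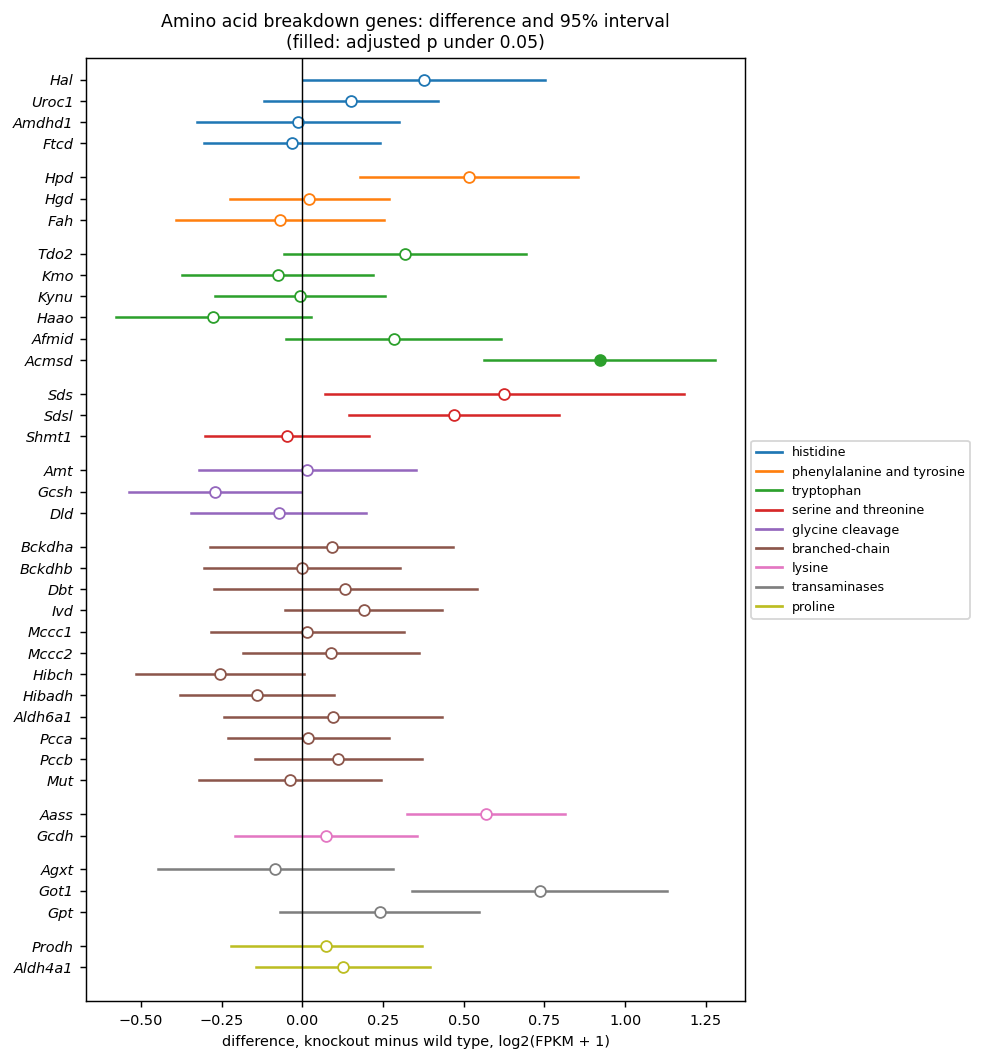
Difference between knockout and wild type on the log2(FPKM + 1) scale (horizontal axis) for each of the 38 genes, coloured by amino acid group, with lines for the 95% interval of limma. The filled point is Acmsd at 0.92, the open points did not pass the test, and the branched-chain genes lie between -0.26 and 0.19.

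Acmsd encodes aminocarboxymuconate semialdehyde decarboxylase, which draws an intermediate of tryptophan breakdown away from NAD synthesis and towards complete oxidation (gene 266645, chromosome 1, 127729413 to 127767564, GRCm38). It stood at 15.8, 14.5 and 15.9 FPKM in knockout replicates 1, 2 and 3 and 5.93, 8.29 and 9.04 FPKM in wild type replicates 1, 2 and 3. All knockout libraries lay above all wild type libraries, and wild type replicate 1 was the lowest. The means were 15.4 ± 0.793 FPKM in the knockout and 7.75 ± 1.62 FPKM in wild type (SD, n = 3 each), 1.98 times the wild type level, with a difference of 0.92 (SE 0.16; limma, adjusted p = 0.037) and a 95% interval of 0.56 to 1.28. The call held without knockout replicate 1 (limma, adjusted p = 0.043) or wild type replicate 1 (0.031) and was lost on leaving out any of the other 4 libraries. The adjusted p was then 0.14 and 0.14 for knockout replicates 2 and 3 and 0.10 and 0.061 for wild type replicates 2 and 3. It was 0.065 with the replicate number as a block and 0.12 with no filter on low values, while without replicate 1 of both genotypes it was 0.0044 with a difference of 0.74. The annotated span of Acmsd overlaps Gm35993 and 2900009J06Rik, and the sources used here do not say if reads were assigned by strand.

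Gldc encodes the subunit of the glycine cleavage complex that binds and decarboxylates glycine (gene 104174, chromosome 19, 30098441 to 30175441, GRCm38). It stood at 50.5, 54.5 and 56.8 FPKM in knockout replicates 1, 2 and 3 and 23.6, 31.1 and 27.4 FPKM in wild type replicates 1, 2 and 3, again with no overlap between the genotypes. The means were 53.9 ± 3.21 FPKM in the knockout and 27.3 ± 3.78 FPKM in wild type (SD, n = 3 each), 1.97 times the wild type level, with a difference of 0.96 (SE 0.13; limma, adjusted p = 0.0099). The call was lost without knockout replicate 2, knockout replicate 3 or wild type replicate 3 (limma, adjusted p = 0.071, 0.060 and 0.057) and held with the replicate as a block (0.027). Its annotated span overlaps Rpl31-ps20.

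Aass encodes the bifunctional aminoadipate semialdehyde synthase that opens lysine degradation in mitochondria (gene 30956, chromosome 6, 23072173 to 23132986, GRCm38). Its values were 119, 125 and 120.2 FPKM in knockout replicates 1, 2 and 3 and 76.4, 86.3 and 82.3 FPKM in wild type replicates 1, 2 and 3. The means were 122 ± 3.05 FPKM in the knockout and 81.7 ± 4.97 FPKM in wild type (SD, n = 3 each), and every knockout library lay above every wild type library. The difference was 0.57 (SE 0.11; limma, adjusted p = 0.054) with a 95% interval of 0.32 to 0.81, just outside the threshold. Without knockout replicate 1 it passed (limma, adjusted p = 0.038), and without replicate 1 of both genotypes the difference was 0.54 (SE 0.07; limma, adjusted p = 0.0019).

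The windows of 300 bases around the RefSeq starts of Gldc and Aass (250 bases before to 50 after, GRCm38.p6) are shown because they belong to a gene that rose and to the member next to the threshold. Capitals mark matches on either strand to 5 motifs: AGGTCA, the core bound by many nuclear receptors; TGACG, the core of the cyclic AMP response element; TTGCNNAA, bound by C/EBP factors; TGTTCT, the core of the glucocorticoid response element; and CCAAT.
Gldc, chr19:30175392-30175691, minus strand: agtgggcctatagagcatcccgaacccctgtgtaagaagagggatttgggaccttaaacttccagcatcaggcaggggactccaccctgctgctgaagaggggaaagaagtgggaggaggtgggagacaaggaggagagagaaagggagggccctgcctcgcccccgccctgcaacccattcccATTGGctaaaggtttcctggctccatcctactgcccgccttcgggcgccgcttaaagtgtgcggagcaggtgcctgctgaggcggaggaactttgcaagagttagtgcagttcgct
Aass, chr6:23132937-23133236, minus strand: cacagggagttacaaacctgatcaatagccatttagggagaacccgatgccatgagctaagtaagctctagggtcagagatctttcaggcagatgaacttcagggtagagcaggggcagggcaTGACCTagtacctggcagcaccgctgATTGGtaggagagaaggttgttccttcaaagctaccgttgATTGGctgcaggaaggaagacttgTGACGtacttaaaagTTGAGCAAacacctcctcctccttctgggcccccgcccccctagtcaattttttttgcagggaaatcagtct
The Aass window held AGGTCA on the opposite strand, starting at -127 from the annotated start, CCAAT on the opposite strand at -101 and -61, TGACG at -37 and, on the opposite strand, the C/EBP motif at -22. In the Gldc window CCAAT on the opposite strand at -66 was the single match. Among 10286 windows of tested genes AGGTCA was found in 13.4%, TGACG in 31.7%, TTGCNNAA in 8.96%, TGTTCT in 12.8% and CCAAT in 37.7%. Among the 35 windows of the 32 members that had one, AGGTCA was found in 13, TGACG in 6, TTGCNNAA in 5, TGTTCT in 6 and CCAAT in 22. These matches are a description of the letters and not of binding.

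Of 6 tryptophan members Acmsd rose and the other 5 did not pass, with 3 positive and 3 negative differences in all. Tdo2, the dioxygenase of the opening step and the most abundant gene of this group, stood at 913, 733 and 737 FPKM in the knockout libraries and 798, 548 and 580.1 FPKM in the wild type libraries. Wild type replicate 1 lay within the knockout range, and the difference was 0.32 (SE 0.17; limma, adjusted p = 0.59). Afmid, which hydrolyses formylkynurenine to kynurenine, stood at 44.4, 62.5 and 62.5 FPKM in the knockout libraries and 47.5, 44.1 and 45.4 FPKM in the wild type libraries, with knockout replicate 1 beside the wild type libraries. Its difference was 0.28 (SE 0.15; limma, adjusted p = 0.59), and 43.2% of its 31-base words occur in other genes, 41.9% in the annotated gene Gm20708, so its value is uncertain where counting split shared reads. Its annotated span overlaps Tk1.

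The enzymes in the middle of the pathway did not pass. Kmo, the monooxygenase that hydroxylates kynurenine, averaged 95.5 ± 6.69 FPKM in the knockout and 101 ± 13.4 FPKM in wild type, and Kynu, which cleaves off alanine, averaged 52.9 ± 3.25 FPKM in the knockout and 53.2 ± 4.12 FPKM in wild type. Their 95% intervals were -0.37 to 0.22 and -0.27 to 0.26. Haao makes the intermediate that the Acmsd enzyme consumes. It stood at 228, 214 and 202 FPKM in the knockout libraries and 308, 241 and 236 FPKM in the wild type libraries, lower in all knockout libraries than in any wild type library, with a difference of -0.28 (SE 0.13; limma, adjusted p = 0.55). Other tryptophan genes, Ido2, Aadat, Kyat1, Kyat3 and Qprt, had differences of -0.01 to 0.09 and none passed.

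The level of Acmsd relative to Haao, a comparison chosen after the values were seen, was taken as the log2 ratio of FPKM + 1 in each library. It was -3.77, -3.80 and -3.59 in the knockout libraries and -5.48, -4.70 and -4.56 in the wild type libraries. The means were -3.72 ± 0.11 and -4.92 ± 0.49 (SD), and the ratio was higher by 1.20 on the log2 scale in the knockout. Both genes were without overlap in opposite directions, so the ratio restates their values. An exact permutation test over libraries was thereby fixed at p = 0.1, the smallest possible, and gives no support.

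**Figure D2:**
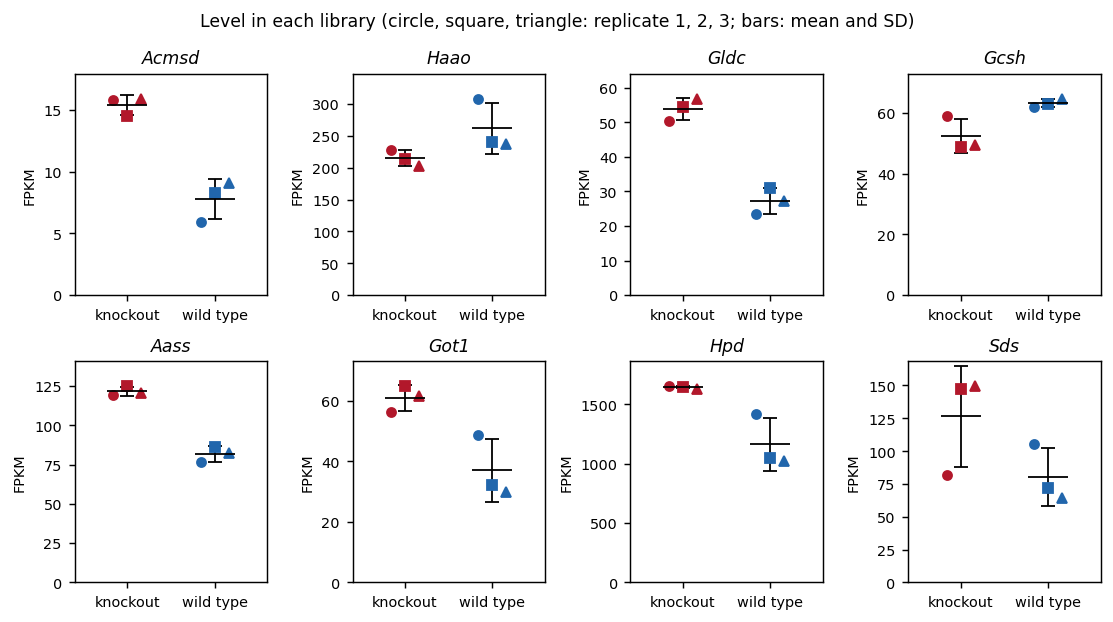
FPKM (vertical axis, from 0) of 8 genes in each library, with circles, squares and triangles for replicates 1, 2 and 3 and bars for the mean and SD. Acmsd, Gldc, Aass, Got1 and Hpd show no overlap between knockout and wild type, Haao and Gcsh are lower in the knockout libraries, and in Sds knockout replicate 1 lies at 82.1 FPKM, among the wild type libraries.

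The other 3 subunits of glycine cleavage did not pass. Gcsh, the lipoylated carrier protein, stood at 58.9, 48.6 and 49.5 FPKM in the knockout libraries and 62.00, 62.8 and 64.7 FPKM in the wild type libraries, below every wild type library in the knockout. Its difference was -0.27 (SE 0.12; limma, adjusted p = 0.49), and without replicate 1 of both genotypes it fell, by 0.37 (SE 0.07; limma, adjusted p = 0.016). Of its 31-base words 7.75% occur in other genes. Dld, the dihydrolipoamide dehydrogenase shared with the keto acid dehydrogenases and the most abundant of the 3 members, stood at 64.7, 53.6 and 62.4 FPKM in the knockout libraries and 62.5, 60.3 and 67.2 FPKM in the wild type libraries, and the genotypes overlapped. Amt, the aminomethyltransferase, averaged 12.2 ± 2.08 FPKM in the knockout and 12.04 ± 1.17 FPKM in wild type, with a 95% interval of -0.32 to 0.35. The log2 ratio of Gldc to the mean of Amt, Gcsh and Dld was 0.53, 0.78 and 0.65 in the knockout libraries and -0.58, -0.18 and -0.50 in the wild type libraries, a difference of 1.07. This ratio too was chosen after the values were seen. An exact permutation test over libraries gave p = 0.1, the smallest possible, so it could not pass the threshold.

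Neighbouring steps of glycine supply were also examined. Sardh and Dmgdh, mitochondrial dehydrogenases that demethylate sarcosine and dimethylglycine, had no overlap between genotypes. Sardh averaged 185 ± 7.69 FPKM in the knockout and 143 ± 16.9 FPKM in wild type, a difference of 0.38 (SE 0.12; limma, adjusted p = 0.31). Dmgdh averaged 197 ± 15.6 FPKM in the knockout and 162 ± 5.37 FPKM in wild type, a difference of 0.27 (SE 0.11; limma, adjusted p = 0.46). Gnmt, which makes sarcosine from glycine, and Pipox, which oxidizes sarcosine in peroxisomes, had differences of 0.13 and 0.03 and did not pass.

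In serine and threonine breakdown Sds, the serine dehydratase that forms pyruvate, did not pass with all libraries. It stood at 82.1, 147 and 149.6 FPKM in the knockout libraries and 106, 71.9 and 64.00 FPKM in the wild type libraries. Knockout replicates 2 and 3 lay above every wild type library, and knockout replicate 1 lay within the wild type range. The difference was 0.63 (SE 0.25; limma, adjusted p = 0.43), and without replicate 1 of both genotypes 1.12 (SE 0.08; limma, adjusted p = 6.4e-05). Its annotated span overlaps Plbd2. Sdsl, a related dehydratase and the least abundant member, stood at 6.05, 6.17 and 7.82 FPKM in the knockout libraries and 4.46, 4.74 and 4.35 FPKM in the wild type libraries, with no overlap, and its difference was 0.47 (SE 0.15; limma, adjusted p = 0.27). Shmt1, the cytosolic enzyme that interconverts serine and glycine, averaged 61.1 ± 3.67 FPKM in the knockout and 63.2 ± 3.65 FPKM in wild type. Its 95% interval was -0.30 to 0.21.

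Tyrosine breakdown held the most abundant member, which did not pass the test with all libraries. Hpd, which turns hydroxyphenylpyruvate from tyrosine into homogentisate, stood at 1656, 1650.3 and 1634 FPKM in the knockout libraries and 1422, 1047 and 1027 FPKM in the wild type libraries. The means were 1647 ± 11.1 FPKM in the knockout and 1165 ± 223 FPKM in wild type, and wild type replicate 1 lay between the knockout libraries and the other wild type libraries. The difference was 0.51 (SE 0.15; limma, adjusted p = 0.23), and it passed without wild type replicate 1 (limma, adjusted p = 0.019) and without replicate 1 of both genotypes, at 0.66 (SE 0.05; limma, adjusted p = 1.3e-04). The following steps did not pass in either fit. Hgd, which opens the ring of homogentisate, averaged 241 ± 6.40 FPKM in the knockout and 238 ± 13.4 FPKM in wild type, and Fah, which ends the pathway, averaged 292 ± 19.4 FPKM in the knockout and 309 ± 54.9 FPKM in wild type. Their 95% intervals were -0.23 to 0.27 and -0.39 to 0.25.

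Upstream of Hpd, Tat, the tyrosine aminotransferase known as a glucocorticoid target, stood at 310.1, 679 and 729 FPKM in the knockout libraries and 272, 320.1 and 302 FPKM in the wild type libraries. Knockout replicate 1 lay among the wild type libraries and the other knockout libraries above all of them. The difference was 0.85 (SE 0.28; limma, adjusted p = 0.30), and it passed without knockout replicate 1 (limma, adjusted p = 0.0013). Pcbd1, which recycles the cofactor tetrahydrobiopterin, averaged 208 ± 12.4 FPKM in the knockout and 248 ± 13.99 FPKM in wild type and was lower in every knockout library, at -0.26 (SE 0.11; limma, adjusted p = 0.50).

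Got1, the cytosolic aspartate aminotransferase, stood at 56.4, 64.99 and 61.6 FPKM in the knockout libraries and 48.9, 32.3 and 29.9 FPKM in the wild type libraries. Wild type replicate 1 was again the wild type library nearest to the knockout. The difference was 0.74 (SE 0.18; limma, adjusted p = 0.13), and it passed without wild type replicate 1 (limma, adjusted p = 0.0093) and without replicate 1 of both genotypes, at 1.002 (SE 0.08; limma, adjusted p = 1.8e-04). Gpt, the cytosolic alanine aminotransferase and the most abundant of the 3 transaminases, stood at 123, 136 and 130.2 FPKM in the knockout libraries and 131, 107 and 94.5 FPKM in the wild type libraries, with overlap, at 0.24 (SE 0.14; limma, adjusted p = 0.63). Its mitochondrial relative Gpt2 averaged 120.3 ± 3.81 FPKM in the knockout and 89.1 ± 10.00 FPKM in wild type, with no overlap, at 0.43 (SE 0.12; limma, adjusted p = 0.20). Agxt, which transfers the amino group of alanine to glyoxylate, averaged 106 ± 2.02 FPKM in the knockout and 115 ± 28.9 FPKM in wild type, with wild type replicate 1 at 148 FPKM. The mitochondrial aspartate aminotransferase Got2, with a difference of 0.05, did not pass.

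**Figure D3:**
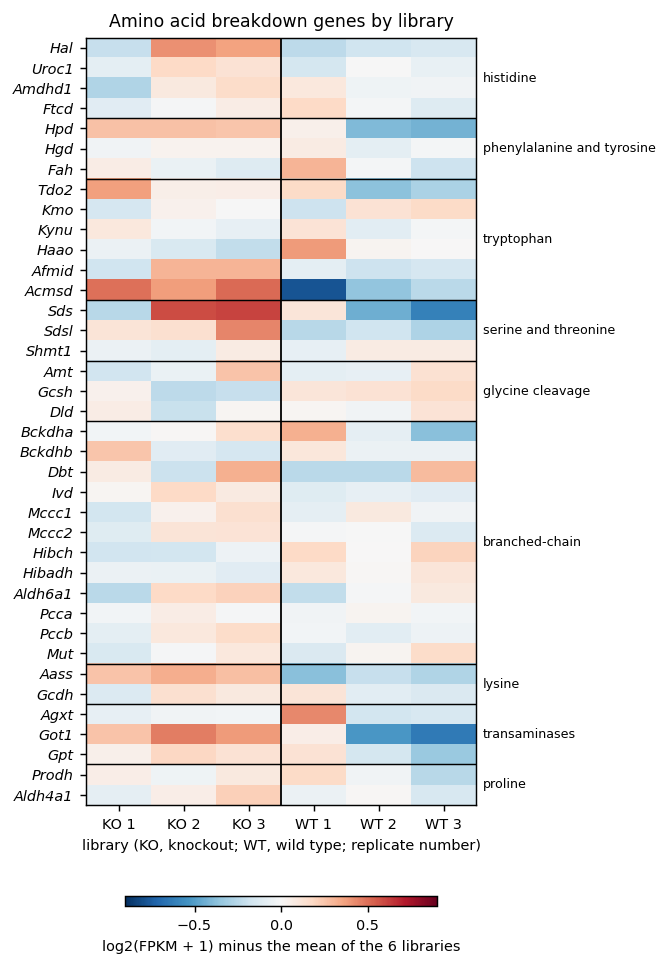
Deviation of log2(FPKM + 1) from the mean of the 6 libraries for the 38 genes (rows, by amino acid group) in each library (columns, KO for knockout and WT for wild type). Acmsd, Aass, Got1 and Hpd are higher in all KO columns than in any WT column, Hal, Afmid and Sds are so in KO 2 and KO 3 but not in KO 1, and no branched-chain gene passed the test.

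Branched-chain amino acid breakdown was the largest group, with 12 genes, and no member passed. Over the 12, 0 had an unadjusted p under 0.05, and none passed without replicate 1 of both genotypes. Differences ran from -0.26 to 0.19 with a median of 0.05, and the 95% intervals of all 12 lay within -0.52 and 0.54. The subunits of the keto acid dehydrogenase complex averaged 136 ± 8.83 FPKM in the knockout and 130.01 ± 32.01 FPKM in wild type for Bckdha, 101 ± 16.01 FPKM in the knockout and 99.99 ± 6.46 FPKM in wild type for Bckdhb and 34.7 ± 6.36 FPKM in the knockout and 31.7 ± 7.26 FPKM in wild type for Dbt. Their differences were 0.09, -0.0008 and 0.13.

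In the branch of leucine, Ivd, the isovaleryl-CoA dehydrogenase, stood at 66.4, 74.2 and 69.4 FPKM in the knockout libraries and 60.6, 62.05 and 61.01 FPKM in the wild type libraries, without overlap, at 0.19 (SE 0.11; limma, adjusted p = 0.63). Mccc1 and Mccc2, the subunits of methylcrotonyl-CoA carboxylase, had differences of 0.02 and 0.09. In the branch of valine Hibch, the hydroxyisobutyryl-CoA hydrolase, stood at 39.1, 39.2 and 42.6 FPKM in the knockout libraries and 50.2, 44.2 and 50.7 FPKM in the wild type libraries. All its knockout values were lower, with a difference of -0.26 (SE 0.12; limma, adjusted p = 0.51). Hibadh, the dehydrogenase of the following step and the most abundant member of the group, stood at 169.6, 169 and 164 FPKM in the knockout libraries and 187, 177 and 189.9 FPKM in the wild type libraries, also without overlap, at -0.14 (SE 0.11; limma, adjusted p = 0.74). Aldh6a1, which forms propionyl-CoA from valine, averaged 174 ± 28.7 FPKM in the knockout and 162 ± 17.5 FPKM in wild type.

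The enzymes that carry propionyl-CoA to succinyl-CoA, Pcca, Pccb and Mut, had differences of 0.02, 0.11 and -0.04, with means over the 6 libraries of 28.7, 96.6 and 63.8 FPKM. Of 11 further genes of the branch none passed with all libraries, and 1 had an unadjusted p under 0.05: Bcat2, the mitochondrial branched-chain aminotransferase, which averaged 6.92 ± 0.321 FPKM in the knockout and 4.87 ± 0.795 FPKM in wild type, at 0.44 (SE 0.15; limma, adjusted p = 0.33). Without replicate 1 of both genotypes Bcat2 rose, by 0.54 (SE 0.14; limma, adjusted p = 0.043). Bckdk and Ppm1k, the kinase and the phosphatase of the dehydrogenase, had differences of 0.04 and 0.14. In the pathway annotation that the authors deposited with the table, 56 tested genes belonged to valine, leucine and isoleucine degradation, of which none passed. At an unadjusted p under 0.05 there were 7 of them, beside 9.93% of all tested genes.

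None of the 4 histidine members passed with all libraries. Hal, the ammonia-lyase of the opening step, stood at 29.8, 46.4 and 44.8 FPKM in the knockout libraries and 29.2, 30.4 and 31.2 FPKM in the wild type libraries, with knockout replicate 1 among the wild type libraries, at 0.38 (SE 0.17; limma, adjusted p = 0.50). It passed without knockout replicate 1 (limma, adjusted p = 0.041) and without replicate 1 of both genotypes, at 0.55 (SE 0.08; limma, adjusted p = 0.0037). Uroc1, the urocanase, and Amdhd1, the imidazolonepropionase, had differences of 0.15 and -0.01. Ftcd, which passes the formimino group to tetrahydrofolate and was the most abundant of the 4, stood at 111, 119 and 125 FPKM in the knockout libraries and 136, 119 and 110.3 FPKM in the wild type libraries, with a difference of -0.03 (SE 0.12; limma, adjusted p = 0.97).

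In lysine degradation beyond Aass, Gcdh, the glutaryl-CoA dehydrogenase, stood at 194, 234 and 225 FPKM in the knockout libraries and 229, 198 and 193 FPKM in the wild type libraries, with overlap, at 0.07 (SE 0.13; limma, adjusted p = 0.93). Without replicate 1 of both genotypes it rose, by 0.23 (SE 0.06; limma, adjusted p = 0.049). Of 5 further lysine genes none passed. The proline genes Prodh, the dehydrogenase, and Aldh4a1, which oxidizes its product to glutamate, had differences of 0.07 and 0.13. Aldh4a1, the more abundant, stood at 96.2, 106 and 118 FPKM in the knockout libraries and 97.9, 102 and 91.8 FPKM in the wild type libraries, and 31.03% of its 31-base words occur in the annotated gene Gm21969.

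Without overlap between genotypes were 10 of the 38 members, beside 15.4% of all tested genes. Of these 6 were higher in the knockout (5.32% of all tested genes) and 4 lower (10.0%). Those higher were Acmsd, Aass, Got1, Hpd, Sdsl and Ivd, and those lower were Haao, Gcsh, Hibch and Hibadh. In the authors' deposited annotation of cell component, mitochondria were named for 27 members, with a median difference of 0.02. For the other 11 the median was 0.24. The cytosolic enzymes Got1 and Shmt1 are among the 27, so this does not separate mitochondrial from cytosolic enzymes. The 38 members together took 0.984% to 1.01% of the FPKM sum in the knockout libraries and 0.828% to 0.917% in the wild type libraries. This share follows the most abundant members, Hpd and Tdo2. Hpd averaged 1647 FPKM in the knockout and 1165 FPKM in wild type, and Tdo2 794 and 642 FPKM. Neither passed the test with all libraries.

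Of the libraries, knockout replicate 1 was the lowest of its genotype in 25 members (65.8%, beside 57.3% of all tested genes). Wild type replicate 1 was the highest of its genotype in 18 members (47.4%, beside 35.0% of all tested genes). Hal, Afmid, Sds and Tat were low in knockout replicate 1, whereas Hpd, Got1, Gpt and Agxt were high in wild type replicate 1.

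**Figure D4:**
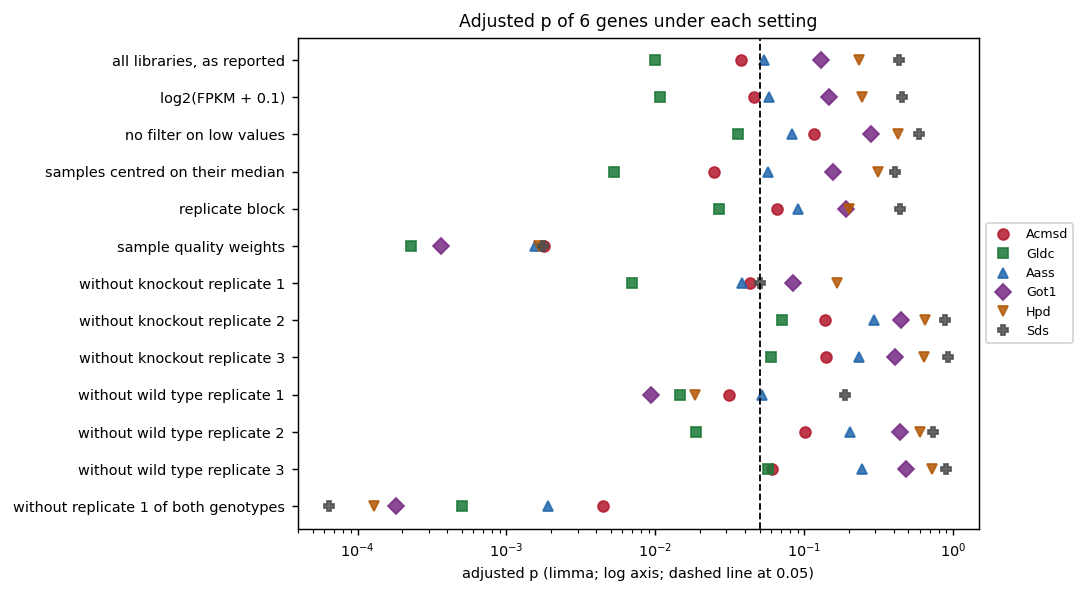
Adjusted p (limma, horizontal log axis) of Acmsd, Gldc, Aass, Got1, Hpd and Sds with all libraries and under the 12 alternatives (rows), with a dashed line at 0.05. With all libraries Gldc (0.0099) and Acmsd (0.037) lie left of the line, and with sample quality weights or without replicate 1 of both genotypes all 6 genes do.

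Amino acid carriers and regulators were tested beside the enzymes. None of 11 carriers passed with all libraries, and 2 had an unadjusted p under 0.05, beside 9.93% of all tested genes. Without replicate 1 of both genotypes 6 of the 11 rose and none fell, in a fit where 6.92% of all tested genes rose and 4.95% fell. These 6 were Slc7a2, Slc38a2, Slc16a10, Slc25a13, Slc25a15 and Slc25a22, with differences of 0.28 to 0.64 and adjusted p of 0.0030 to 0.044 in limma. With sample quality weights Slc38a2 and Slc25a13 did not pass (limma, adjusted p = 0.17 and 0.063). Slc7a2, a carrier of cationic amino acids, averaged 56.96 ± 15.2 FPKM in the knockout and 37.9 ± 6.43 FPKM in wild type, at 0.55 (SE 0.21; limma, adjusted p = 0.38), and passed without knockout replicate 1 (limma, adjusted p = 0.044). Slc16a10, a carrier of aromatic amino acids, averaged 22.6 ± 1.72 FPKM in the knockout and 17.4 ± 0.405 FPKM in wild type, with no overlap, at 0.36 (SE 0.12; limma, adjusted p = 0.32). None of 11 tested regulators passed with all libraries, and 1 had an unadjusted p under 0.05, again beside 9.93% of all tested genes. Hnf4a, a nuclear receptor of hepatocyte identity, averaged 97.2 ± 3.39 FPKM in the knockout and 77.8 ± 11.1 FPKM in wild type, with no overlap, at 0.33 (SE 0.13; limma, adjusted p = 0.44). Cebpa, Cebpb and Klf15, factors known to act on amino acid genes in liver, did not pass with all libraries, and the genotypes overlapped. Their differences were 0.27, 0.42 and 0.33 (limma, adjusted p = 0.71, 0.59 and 0.68). They rose without replicate 1 of both genotypes, by 0.63 (adjusted p = 0.0012), 0.82 (adjusted p = 0.0020) and 0.65 (adjusted p = 0.0031) in limma. As for the members, the adjusted p-values of that fit are no independent support for a rise of these regulators or of the carriers.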

How the data were processed

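Liver RNA was sequenced in 6 libraries, and samples were assigned to knockout or wild type by their labelled genotype. The values are FPKM, deposited by the authors for 15960 genes, per the file headers. HISAT and the build mm10 appear in the submitters' processing notes, whereas no source used here names the quantifier.

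The 9968 genes reaching 1 FPKM in 3 or more libraries were fitted on log2(FPKM + 1) with limma 3.58.1 (lmFit and a trended eBayes, R 4.3.3), which understates differences of low genes. P-values were adjusted by Benjamini-Hochberg over all tested genes, with a threshold of 0.05. A count model was not used, since FPKM are not counts. The labels do not say how the libraries were taken, so p-values measure the spread between these libraries, which may be technical. The fit was tested on simulated data.

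Depth was estimated from the steps of low FPKM values of genes with transcripts of 450 to 1200 bases: 67.2% to 72.5% of 195 to 228 values per library were at most 0.15 from a whole step (30% would be by chance). The estimate takes the full transcript length and is judged on the values that set it.

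The members and lists were chosen with earlier results of these data known. Values in every library are given for members past the threshold, members without overlap between genotypes, and the most abundant member of each group; further members were added after their values were seen. Other genes are named if their unadjusted p was under 0.05, and a few after their values were seen.

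Same-numbered libraries correlated at 0.30, 0.20 and 0.16 in their deviations from the genotype means. Differently numbered ones ran from -0.30 to 0.21, and knockout replicate 3 with wild type replicate 2, at 0.21, exceeded the latter 2 values. These correlations are not independent, since deviations from a mean sum to 0. The numbers come from the sample titles, and the block fit is an alternative. Other alternatives were a pseudocount of 0.1, no filter, centring on the median, sample quality weights, and leaving out libraries, with the 9968 genes kept. Positions came from RefSeq on GRCm38, the assembly that mm10 names, by gene identifier (38 of 38 members), and promoter windows from RefSeq on GRCm38.p6.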

Additional observations from a re-analysis of the deposited data

How the results depend on the processing

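With 3 libraries per genotype, leaving out single libraries moved the counts by over 1.5 times. The count of all changed genes, 76 with all libraries, ran from 29 to 211 when 1 library was left out. It was 32 with no filter on low values, 1151 with sample quality weights and 1183 without replicate 1 of both genotypes. The count of changed members, 1 with all libraries, ran from 0 to 3 when 1 library was left out and was 0 with no filter, 0 with the replicate block, 11 with weights and 11 without replicate 1 of both genotypes. The last 2 settings shared 10 of these genes. Among the 67 other tested enzymes, carriers and regulators the count, 1 with all libraries, ran from 0 to 4 when 1 library was left out and was 13 with weights and 19 without replicate 1 of both genotypes. The cause was not tested. The replicate block ended the call of Acmsd and changed no other call among members, Gldc or Cyp2e1. Cyp2e1 stayed between -4.70 and -4.53 and past the threshold in all 12 alternatives.

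The 12 alternatives reuse the same libraries, so a sign that holds in them is no independent support for a difference. The sign held in all 12 alternatives for 23 of 38 members, among them all 8 with an unadjusted p under 0.05. For the other 15 the difference passed 0. When 1 library was left out it ranged over Amdhd1 (-0.10 to 0.12), Ftcd (-0.10 to 0.050), Hgd (-0.016 to 0.063), Fah (-0.18 to 0.067), Kynu (-0.055 to 0.052), Amt (-0.11 to 0.11), Dld (-0.13 to 0.0068), Bckdha (-0.073 to 0.27), Bckdhb (-0.13 to 0.073), Mccc1 (-0.054 to 0.10), Pcca (-0.010 to 0.037), Mut (-0.11 to 0.034), Agxt (-0.19 to 0.11) and Prodh (-0.034 to 0.18). Centred on the sample median, it was 0.013 for Amdhd1, 0.021 for Kynu and 0.027 for Bckdhb. With weights it was 0.10 for Amdhd1, 0.047 for Ftcd, 0.0044 for Fah, 0.014 for Kynu, -0.0079 for Amt, -0.031 for Dbt and 0.078 for Agxt. Without replicate 1 of both genotypes it was 0.16 for Amdhd1, 0.094 for Ftcd, 0.015 for Fah, 0.0041 for Kynu and 0.13 for Agxt.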

Other observations

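The authors deposited a pathway annotation with each gene, which gives wider lists than the members. In tryptophan metabolism 40 genes were tested, of which Acmsd rose and 39 did not pass. In glycine, serine and threonine metabolism 36 were tested, of which 2 rose and 2 fell. Those that rose were Gldc and Bhmt, the betaine-homocysteine methyltransferase, and those that fell were Alas2, the erythroid enzyme of heme synthesis, and Cth, the cystathionine lyase. In phenylalanine metabolism 12 were tested, of which Keg1 fell, with a difference of -0.96 (SE 0.17; limma, adjusted p = 0.037). In alanine, aspartate and glutamate metabolism 38 were tested, of which Nat8f5 rose, by 2.11 (SE 0.26; limma, adjusted p = 0.0043). Asns, the asparagine synthetase, fell there, with a difference of -2.78 (SE 0.23; limma, adjusted p = 3.2e-04). In limma none of 17 histidine, 28 tyrosine, 71 lysine or 42 arginine and proline genes passed, with 4, 9, 5 and 4 at an unadjusted p under 0.05. The share of all tested genes at that cutoff was 9.93%. These counts were made after the values of the members were seen.

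Markers of other cells were low or showed no call. Of 6 endothelial markers 5 had a negative difference, as did 3 of 5 tested stellate cell markers, beside 5567 of all 9968 tested genes. Endothelial markers summed to 55.05 to 77.3 FPKM in the knockout and 50.95 to 72.1 FPKM in wild type. The stellate cell sums were 78.7 to 81.5 FPKM in the knockout and 84.8 to 101 FPKM in wild type. The cholangiocyte marker Spp1 was the single tested marker of its list, and the other 4 stayed under 1 FPKM in all libraries. The adipose marker Adipoq reached at most 0.19 FPKM. Hba-a1 of red blood cells reached 299 FPKM, and Cela1, a marker of pancreas, 44.2 FPKM. Lymphocyte and neutrophil markers summed to at most 11.8 FPKM. The 4 kidney markers looked up, Umod, Slc34a1, Kap and Nphs1, were absent from the deposited table.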
